A study of Rattus norvegicus with 10 samples.

Results

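The genes described here are the chemokines and chemokine receptors: every gene whose symbol is Ccl, Cxcl, Ccr or Cxcr followed by a number, together with Cx3cl1, Cx3cr1, Xcl1, Xcr1 and the atypical receptors Ackr1 to Ackr4. The rule reads names only and uses no measured value. It found 52 such genes among the 15168 named genes on the array, 33 ligands and 19 receptors. Of these, 49 (32 ligands and 17 receptors) passed the filter on dim probes and were among the 14711 genes tested. Ccr1, Cxcr1 and Cxcl2 did not pass it, and Ackr1, Ackr4, Ccr8 and Cxcl3 were not analysed here.

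The values are mRNA levels in submandibular glands, which are salivary glands below the jaw. All donors were males of 14 weeks. Spontaneously hypertensive rats (SHR), inbred animals in which blood pressure rises with age, numbered 5 and were bought from a commercial supplier. Wistar-Kyoto rats (WKY), the related strain with normal pressure, also numbered 5 and were matched for age and weight. The labels name neither a treatment nor an introduced allele in either strain, so the strain is the only labelled difference. Each rat had its own one-colour Agilent array, named below by strain and by the numbers in its title (SHR 3-4). Unless stated otherwise a level is a log2 intensity relative to the 75th percentile of the same array, where 0 is that percentile, and a difference is SHR minus WKY on the log2 scale with its standard error (SE) and n = 5 per strain.

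Chemokines are small secreted proteins, a few of them tethered to the cell surface, that direct the movement of leukocytes. They act on receptors that couple to inhibitory G proteins, while atypical receptors bind chemokines without that signal and remove them. Homeostatic chemokines are made constantly and place lymphocytes and stem cells in tissues. Inflammatory chemokines are induced by cytokines through factors such as NF-kB. In salivary glands, epithelial chemokines are known for attracting antibody-secreting cells, and lymphoid chemokines for the aggregates of lymphocytes that form in inflamed glands.

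On the arrays, 94.8% to 97.7% of spots were well above background and 0 were saturated. Arrays sharing a scan time are called a slide below, a grouping that rests on the scan time alone. Slide 1 held SHR 2-3, 3-1, 3-3 and 3-4, and slide 3 held WKY 1-2 and 1-3. Slide 2 held SHR 2-1 with WKY 1-5, 4-1 and 4-2. A comparison within a slide therefore rests on SHR 2-1 against 3 WKY arrays. It is given beside each chemokine gene that passed, and not beside the marker genes. Array SHR 3-3 stood apart: it had the lowest 75th percentile (333, against up to 648 on the others) and the lowest mean correlation with its own strain, 0.975, where the other 9 arrays had 0.983 to 0.992. The 49 tested genes were above background on at least 4 arrays of each strain. Probe intensities depend on the probe, so the level of one gene is not set against that of another.

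The promoters of 4 ligands are shown first, because their genes carry the patterns below: the largest fall, the rise, and a pair of neutrophil attractants that were high in 1 SHR array. Each holds 250 bases before the start site and 50 after it, 5′ to 3′ on the gene's strand, from the RefSeq promoter table of assembly GRCr8, whose reference strain is neither SHR nor WKY. Capitals mark matches to TATAAA and to the NF-kB motif.
Cxcl13, chr14:13917871-13918170, minus strand: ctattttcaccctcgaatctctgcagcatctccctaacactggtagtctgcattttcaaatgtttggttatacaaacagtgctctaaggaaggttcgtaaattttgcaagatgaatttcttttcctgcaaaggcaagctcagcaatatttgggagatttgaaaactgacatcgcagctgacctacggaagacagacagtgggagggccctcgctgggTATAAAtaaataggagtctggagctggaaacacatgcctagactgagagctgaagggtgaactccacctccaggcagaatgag
Cxcl17, chr1:90124486-90124785, minus strand: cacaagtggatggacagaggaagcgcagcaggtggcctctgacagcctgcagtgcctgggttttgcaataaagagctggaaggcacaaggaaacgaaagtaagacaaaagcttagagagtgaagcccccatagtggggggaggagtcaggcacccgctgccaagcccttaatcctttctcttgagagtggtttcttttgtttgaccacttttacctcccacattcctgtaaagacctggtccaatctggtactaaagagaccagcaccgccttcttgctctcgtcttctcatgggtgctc
Cxcl1, chr14:17479272-17479571, minus strand: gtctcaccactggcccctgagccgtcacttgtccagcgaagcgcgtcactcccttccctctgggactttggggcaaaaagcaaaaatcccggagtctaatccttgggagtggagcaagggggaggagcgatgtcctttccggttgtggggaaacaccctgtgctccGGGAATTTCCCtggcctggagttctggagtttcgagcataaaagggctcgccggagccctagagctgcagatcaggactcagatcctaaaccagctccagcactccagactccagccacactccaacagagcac
Cxcl2, chr14:17467206-17467505, minus strand: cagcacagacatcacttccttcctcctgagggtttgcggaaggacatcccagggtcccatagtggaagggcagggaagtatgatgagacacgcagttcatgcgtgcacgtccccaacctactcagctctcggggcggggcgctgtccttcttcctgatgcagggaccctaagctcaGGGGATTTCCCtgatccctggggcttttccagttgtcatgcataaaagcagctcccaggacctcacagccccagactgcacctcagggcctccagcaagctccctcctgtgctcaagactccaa
The Cxcl13 window holds a TATAAA from base −33 to −28 before the start site and no NF-kB match. The Cxcl1 window holds 2 overlapping NF-kB matches, 1 on each strand, from −84 to −74, and the Cxcl2 window holds 3 overlapping ones from −74 to −64. The Cxcl17 window holds neither motif. Both strands were searched, and the matches say which letters are present, not whether a factor binds.

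At a limma adjusted p below 0.05, 3 of the 49 genes fell in SHR (Cxcl13, Cxcl12 and Ccl5), 1 rose (Cxcl17) and 45 did not pass. All 4 are ligands. The 3 falls are 6.12% of the genes, against 2.85% of all genes tested, the rise is 2.04%, against 1.51%, and both directions together 8.16%, against 4.36%. At an unadjusted p below 0.05 there were 11 genes, 9 lower and 2 higher, or 22.4%, against 20.3% of all genes, a share near the background. Over all 14711 genes tested, 1806 were lower and 1184 higher at that p. Negative differences numbered 34 (69.4%, against 53.4% of all genes tested) and positive ones 15. The median difference was −0.10, against −0.02 over all genes tested, and the range was −2.99 to 1.40. Among the ligands 3 fell and 1 rose, with a median of −0.13, and among the receptors 0 passed (4 at an unadjusted p below 0.05), with a median of −0.05.

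**Figure D1:**
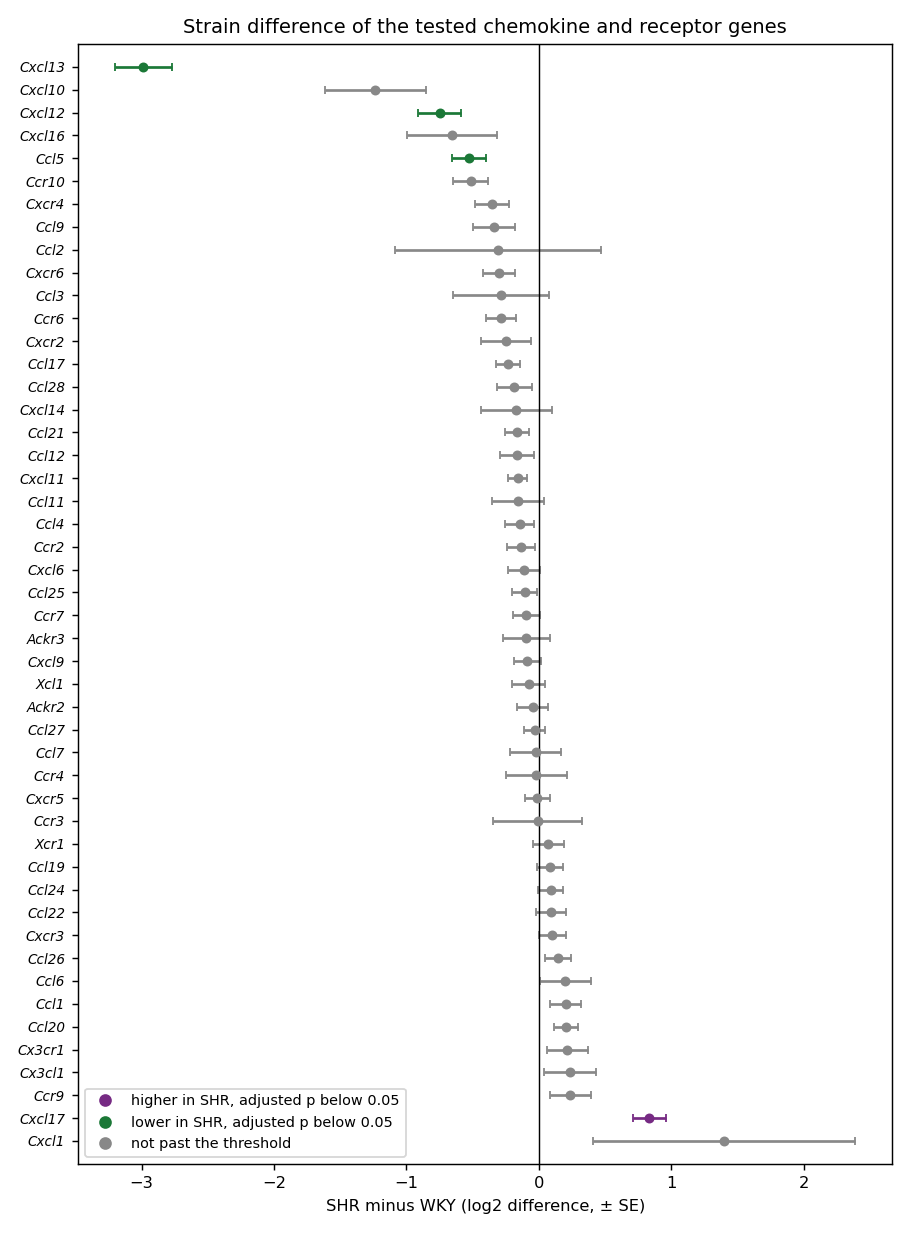
Difference of 48 of the tested chemokine and receptor genes between the strains (x axis, SHR minus WKY in log2 units, points with ± SE, 5 arrays per strain), ordered from the lowest to the highest. Cxcl13 lies at −2.99, apart from the rest; Cxcl12 and Ccl5 are the other falls past the threshold, Cxcl17 is the rise, and Cxcl1 has the widest error (1.40 ± 0.99).

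Cxcl13, the chemokine that draws B cells into follicles, was the gene of the set with the largest difference. Its levels were −3.01, −3.27, −3.40, −3.61 and −3.43 in SHR 2-1, 2-3, 3-1, 3-3 and 3-4, against −0.77, −0.13, −1.04, −0.01 and 0.16 in WKY 1-2, 1-3, 1-5, 4-1 and 4-2. The order of arrays is the same for every gene below. The strains lay far apart, with a gap wider than the spread within either. The difference was −2.99 ± 0.22, a level 7.93-fold lower in SHR (adjusted p = 6.9e-06, 95% interval −3.45 to −2.52). With normexp background correction and quantile normalisation it was smaller, −2.10 (adjusted p = 5.57e-05). Within slide 2, SHR 2-1 was below each of the 3 WKY arrays, with a difference of −2.71 (adjusted p = 0.0198 with the slide as a block, and 0.101 on slide 2 alone). The call was kept without any single array, with differences from −3.16 to −2.86.

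The receptor of Cxcl13 is Cxcr5, which B cells and follicular helper T cells carry. Its levels were −3.62, −3.73, −3.78, −3.72 and −3.47 in SHR, against −3.62, −3.89, −3.52, −3.56 and −3.67 in WKY, so the strains overlapped. The difference was −0.01 ± 0.10 (adjusted p = 0.957), and its 95% interval, −0.22 to 0.19, holds no change of the size seen in the ligand. Of the B cell markers on the array, 5 of 7 listed, 0 passed in limma (1 at an unadjusted p below 0.05), with a median difference of −0.11. Their mean level was −2.94 to −2.55 in the SHR arrays and −2.67 to −2.43 in the WKY arrays. Markers of lymphoid stroma, the cells that make Cxcl13 in follicles, had 0 of 5 past the threshold (0 also unadjusted) and a median of −0.13.

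Macrophages and related myeloid cells are another known source of Cxcl13. Of 9 macrophage markers, 3 fell (Fcer1g by 1.18, Cd68 by 0.97 and Aif1 by 0.81), with a median of −0.53; over all genes tested 2.85% fell. The mean level of the 9 was −1.50 to −0.57 in the SHR arrays and −0.51 to −0.04 in the WKY arrays, without overlap. Their part in the fall of Cxcl13 was not tested, and in bulk tissue fewer cells of a type and less RNA per cell cannot be told apart.

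Ccl19 and Ccl21, which guide T cells and dendritic cells to lymphoid tissue, did not pass. Ccl21 had levels of −1.30 to −1.13 in SHR and −1.20 to −0.82 in WKY, with a difference of −0.17 ± 0.09 (adjusted p = 0.316). Ccl19 differed by 0.08 ± 0.09. Their receptor Ccr7 differed by −0.10 ± 0.10, so of these 3 lymphoid chemokines Cxcl13 passed and the other two did not. The T cell markers had 0 of 7 past the threshold (2 at an unadjusted p below 0.05) and a median of −0.03, with mean levels of −2.11 to −1.84 in the SHR arrays and −1.94 to −1.78 in the WKY arrays.

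Cxcl12 keeps stem cells and lymphocytes in place and is made by stromal cells and fibroblasts. Its levels were 3.88, 3.33, 2.84, 3.47 and 3.47 in SHR, against 4.25, 4.19, 4.37, 4.01 and 3.92 in WKY. Each SHR array lay below each WKY array, but SHR 2-1 came close to WKY 4-2. The difference was −0.75 ± 0.16, or 1.68-fold lower (adjusted p = 0.0242). Within slide 2, SHR 2-1 was below the 3 WKY arrays by a smaller difference, −0.22 with the slide as a block, which did not pass, and no call was made when SHR 2-3, WKY 1-2, WKY 1-3 or WKY 1-5 was left out (largest adjusted p 0.0671). The second Cxcl12 probe, which stands for another transcript of the gene, gave −0.61 ± 0.18 (adjusted p over all probes 0.0864, against 0.0247 for the first).

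Of 5 fibroblast markers, 1 fell, against 2.85% of all genes tested, and the median of the 5 was −0.65. It was Col1a1, with a difference of −0.79 ± 0.20 (limma adjusted p = 0.0438). The strains overlapped for Col1a1, with SHR 2-1 (1.03) and SHR 2-3 (1.09) above WKY 4-2 (0.99). The mean level of the 5 was −1.70 to −0.26 in the SHR arrays, with the lowest in SHR 3-3, and −0.40 to 0.32 in the WKY arrays. Their part in the difference of Cxcl12 was not tested; without SHR 3-3, Cxcl12 differed by −0.77 (adjusted p = 0.0299).

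Cxcl12 acts through Cxcr4, and Ackr3 removes it as an atypical receptor. Cxcr4 had levels of −1.57, −1.98, −2.20, −2.06 and −2.04 in SHR, against −1.30, −1.75, −1.63, −1.70 and −1.68 in WKY. SHR 2-1 lay above all WKY arrays but WKY 1-2, so the strains overlapped. The difference was −0.35 ± 0.13 (adjusted p = 0.136). Ackr3 differed by −0.09 ± 0.18 (adjusted p = 0.813), with an interval of −0.48 to 0.29.

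Cxcl17, a chemokine of mucosal epithelia, was the ligand that rose. Its levels were 2.49, 2.79, 2.17, 2.84 and 2.58 in SHR, against 1.80, 1.53, 1.74, 1.83 and 1.80 in WKY. The lowest SHR array, 3-1, lay above the highest WKY array, and SHR 3-3 was the highest of all. The difference was 0.83 ± 0.13, or 1.78-fold higher (adjusted p = 0.00240, interval 0.56 to 1.11). SHR 2-1 was also above its 3 slide neighbours, by 0.70, which did not pass with the slide as a block (adjusted p = 0.702) or on slide 2 alone (0.209). The call was kept without any single array (differences 0.77 to 0.94, adjusted p up to 0.00938).

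**Figure D2:**
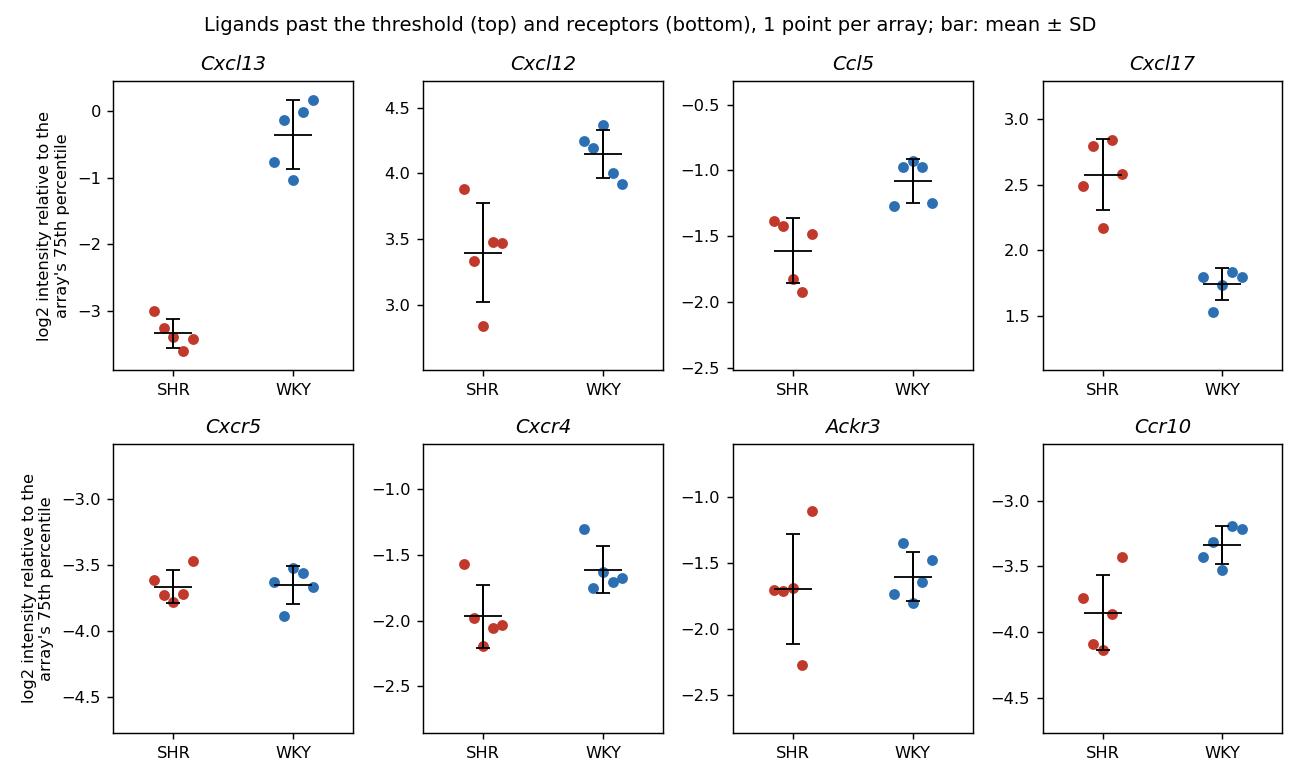
Level of the 4 ligands past the threshold (top) and of 4 receptors (bottom) in each array (y axis, log2 intensity relative to the 75th percentile of the array; SHR left, WKY right; bars are mean ± SD). The strains do not overlap for the 4 ligands. Cxcr5, Cxcr4 and Ackr3 overlap, and Ccr10 overlaps through SHR 3-4 (−3.43).

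The other epithelial chemokines did not pass, and neither did Ccl24, whose cell source was not examined. Ccl28 draws antibody-secreting cells to mucosal glands, and it had levels of 3.15, 3.48, 3.53, 3.19 and 3.14 in SHR, against 3.58, 3.46, 3.23, 3.30 and 3.85 in WKY, with a difference of −0.18 ± 0.13 (adjusted p = 0.456). Ccl24, an attractant of eosinophils, had levels of 3.68, 3.57, 3.70, 3.87 and 3.75 in SHR, against 3.69, 3.55, 3.78, 3.71 and 3.40 in WKY, and differed by 0.09 ± 0.09 (adjusted p = 0.643). Their probes and that of Cxcl12 were the brightest of the ligands, and both genes overlapped between the strains. Cxcl14, which epithelia make constantly, differed by −0.17 ± 0.27, with its lowest level (0.61) in SHR 3-3 and its highest (2.26) in SHR 3-4. Ccl25, Ccl27 and Ccl20, which guide lymphocytes to gut, skin and mucosa, differed by −0.11, −0.03 and 0.20; a second probe of Ccl20 gave 0.10.

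Ccr10 is the receptor for Ccl27 and Ccl28 on plasma cells and skin-homing T cells, and it was the receptor with the largest difference. Its levels were −3.74, −4.09, −4.14, −3.86 and −3.43 in SHR, against −3.43, −3.31, −3.53, −3.19 and −3.22 in WKY. SHR 3-4 lay above WKY 1-5 and marginally above WKY 1-2 (−3.426 against −3.430), and the other 4 SHR arrays lay below all WKY arrays. The difference was −0.51 ± 0.13, just short of the threshold (adjusted p = 0.0509). Without SHR 3-4 it was −0.62 and passed (adjusted p = 0.0132), and with the slide as a block it was −0.43. Of 3 plasma cell markers 0 passed (0 also unadjusted), with a median of −0.23.

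Ccr9, the receptor of Ccl25 on gut-homing lymphocytes, and Cx3cr1, the receptor of Cx3cl1 on monocytes and resident macrophages, were the receptors with the brightest probes. Ccr9 levels were −0.17, 0.04, −0.26, 0.59 and −0.12 in SHR, against −0.21, −0.19, 0.04, −0.24 and −0.51 in WKY, with a difference of 0.24 ± 0.16 (adjusted p = 0.422). Cx3cr1 levels were 0.79, 0.38, 0.71, 1.35 and 0.86 in SHR, against 0.61, 0.78, 0.74, 0.36 and 0.54 in WKY, with a difference of 0.21 ± 0.16 (adjusted p = 0.466). For both genes the strains overlapped and SHR 3-3 was the highest array.

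Cx3cl1, the membrane-bound ligand of Cx3cr1, had levels of 1.25, 1.20, 1.43, 0.35 and 1.55 in SHR, against 0.71, 0.96, 1.15, 0.74 and 1.05 in WKY. SHR 3-3 was the lowest array of all, and the other 4 SHR arrays lay above all WKY arrays. The difference was 0.24 ± 0.20 (adjusted p = 0.536), and 0.44 ± 0.12 without SHR 3-3 (0.0542), which did not pass either.

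Among the inflammatory ligands, Ccl5 attracts T cells and monocytes. Its levels were −1.39, −1.42, −1.83, −1.93 and −1.48 in SHR, against −1.27, −0.97, −0.93, −0.97 and −1.25 in WKY. The strains did not overlap, with SHR 2-1 nearest to WKY 1-2. The difference was −0.53 ± 0.13, or 1.44-fold lower (adjusted p = 0.0368). The call was lost when SHR 3-1, SHR 3-3, SHR 3-4, WKY 1-3, WKY 1-5 or WKY 4-1 was left out (largest adjusted p 0.0995) and with the slide as a block (−0.34), where SHR 2-1 was still below its 3 WKY neighbours. It was also lost with median scaling (adjusted p = 0.0517), with normexp (0.0776) and with the authors' values (0.0534).

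Ccl5 signals through receptors that include Ccr1 and Ccr3. Ccr1 was not well above background on any array. Ccr3, the eosinophil receptor, had levels of −5.43, −3.74, −3.78, −3.64 and −2.99 in SHR, against −4.07, −3.95, −3.73, −3.99 and −3.79 in WKY. Its SHR arrays held both the lowest value, in SHR 2-1, where it was not well above background, and the highest, in SHR 3-4, and the difference was −0.01 ± 0.34. The related ligands Ccl3 and Ccl4 differed by −0.29 ± 0.36 and −0.15 ± 0.11.

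Cxcl9, Cxcl10 and Cxcl11 are induced by interferon and act on Cxcr3 of effector T cells. Cxcl10 had levels of −1.95, −2.15, −1.82, −3.70 and −1.18 in SHR, against −1.16, −0.90, −1.39, −0.18 and −0.98 in WKY. SHR 3-3 was far the lowest, and SHR 3-4 lay among the WKY arrays. The difference was −1.24 ± 0.38, the second largest negative difference of the set, and it did not pass (adjusted p = 0.0897). Without SHR 3-3 it was −0.85 (0.0670) and without SHR 3-4 −1.48 (0.0526). Cxcl11 differed by −0.16 ± 0.07 and Cxcl9 by −0.09 ± 0.10 (adjusted p = 0.247 and 0.688). The interval of Cxcl10, −2.07 to −0.40, is far wider than those of Cxcl11 (−0.32 to 0.00) and Cxcl9 (−0.31 to 0.14). Cxcr3 differed by 0.10 ± 0.10.

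Cxcl16 is a membrane-bound chemokine and scavenger receptor of macrophages and epithelia. Its levels were 2.21, 2.10, 2.54, 0.36 and 2.34 in SHR, against 2.48, 2.69, 2.32, 2.91 and 2.42 in WKY. SHR 3-3 lay apart, and the other 4 SHR arrays overlapped the WKY arrays. The difference was −0.66 ± 0.34 (adjusted p = 0.300), and −0.27 without SHR 3-3 (0.274). Its receptor Cxcr6 differed by −0.30 ± 0.12 (0.194).

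Ccl17, which acts on Ccr4 of regulatory and type 2 helper T cells, was the remaining ligand whose strains did not overlap. Its levels were −1.08, −1.25, −1.40, −1.08 and −1.24 in SHR, against −0.93, −0.83, −1.02, −1.05 and −1.06 in WKY. The arrays SHR 2-1 and 3-3 came close to WKY 4-2, and the difference of −0.23 ± 0.09 did not pass (adjusted p = 0.160). Counting every tested gene of the set, all SHR arrays lay below all WKY arrays in 4 genes (Cxcl13, Cxcl12, Ccl5 and Ccl17), or 8.16%, against 4.11% of all genes with a value on every array. All lay above in 1 gene (Cxcl17), or 2.04%, against 3.15%. Ccl22, the other ligand of Ccr4, differed by 0.09 and Ccr4 by −0.02.

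**Figure D3:**
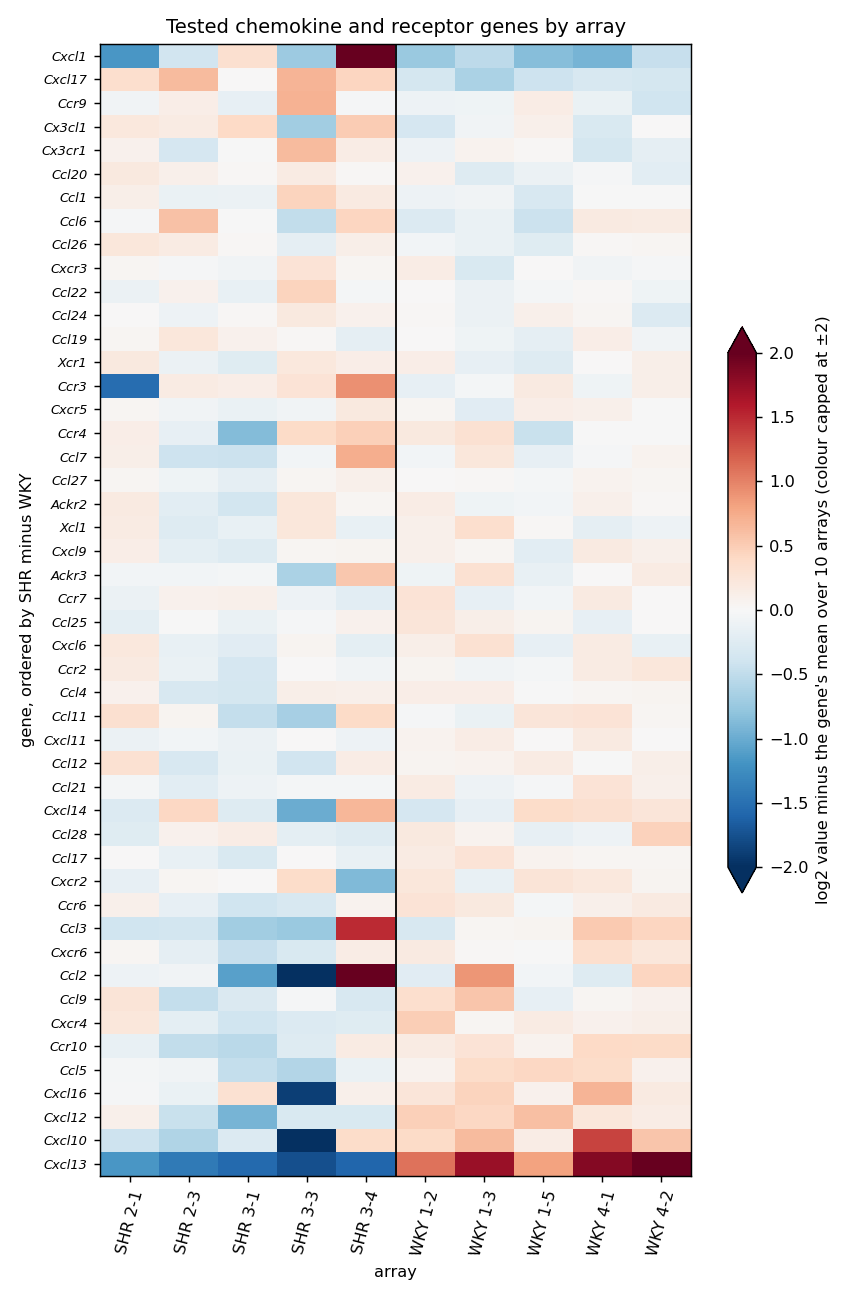
Level of 48 of the tested genes in each array (columns, SHR left and WKY right of the line), as log2 value minus the mean of the gene over the 10 arrays, with colours capped at ±2. Rows run from the highest difference (Cxcl1, top) to the lowest (Cxcl13, bottom); the row of Cxcl13 separates the strains, while Cxcl1, Ccl2 and Ccl3 are high in SHR 3-4 and Cxcl16 is low in SHR 3-3.

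Several inflammatory ligands varied among the SHR rats more than between the strains; Cxcl2, Ccl2, Ccl3 and Ccl7 are named here after their values were seen. Cxcl1, an attractant of neutrophils, had levels of −5.02, −4.25, −3.54, −4.60 and 1.59 in SHR, against −4.61, −4.38, −4.72, −4.79 and −4.32 in WKY. SHR 3-4 was 61.7-fold above the mean of the other 4 SHR arrays, which overlapped the WKY arrays and of which SHR 2-1 was not well above background. The difference of 1.40 ± 0.99, the largest positive one of the set, did not pass (adjusted p = 0.454) and was 0.21 without SHR 3-4. Cxcl2, a close relative that acts on the same receptor, had levels of −6.39, −5.46, −4.71, −6.85 and −0.27 in SHR, against −5.07, −5.22, −5.49, −5.20 and −5.20 in WKY. It was well above background on 2 SHR arrays and 1 WKY array and was not tested, and of the SHR arrays only 3-1 and 3-4 were above it, with SHR 3-4 the highest array of all.

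Ccl2, which recruits monocytes through Ccr2, showed the same high array. Its levels were −3.78, −3.75, −4.76, −6.28 and −0.60 in SHR, against −3.91, −2.79, −3.73, −3.94 and −3.25 in WKY. The SHR arrays enclosed the WKY arrays. SHR 3-4 was 11.3-fold above the mean of SHR 2-1, 2-3 and 3-1, and SHR 3-3, the lowest, was not well above background. The difference was −0.31 ± 0.78 (adjusted p = 0.862), with an interval of −2.0 to 1.38, which holds changes of either sign. It was −1.12 without SHR 3-4 and 0.30 without SHR 3-3.

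Ccl3, made by activated macrophages, had levels of −3.84, −3.81, −4.14, −4.19 and −1.96 in SHR, against −3.76, −3.41, −3.39, −2.93 and −3.02 in WKY. The other 4 SHR arrays lay below all WKY arrays, and SHR 3-4 lay above them. Without SHR 3-4 the difference was −0.69 ± 0.17 (adjusted p = 0.0511, against 0.706 with it), which did not pass. Ccl7, another ligand of Ccr2, was highest in SHR 3-4 too (−1.80, against −2.95 to −2.40 in the other SHR arrays and −2.68 to −2.29 in WKY). Ccr2 differed by −0.13 ± 0.10.

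**Figure D4:**
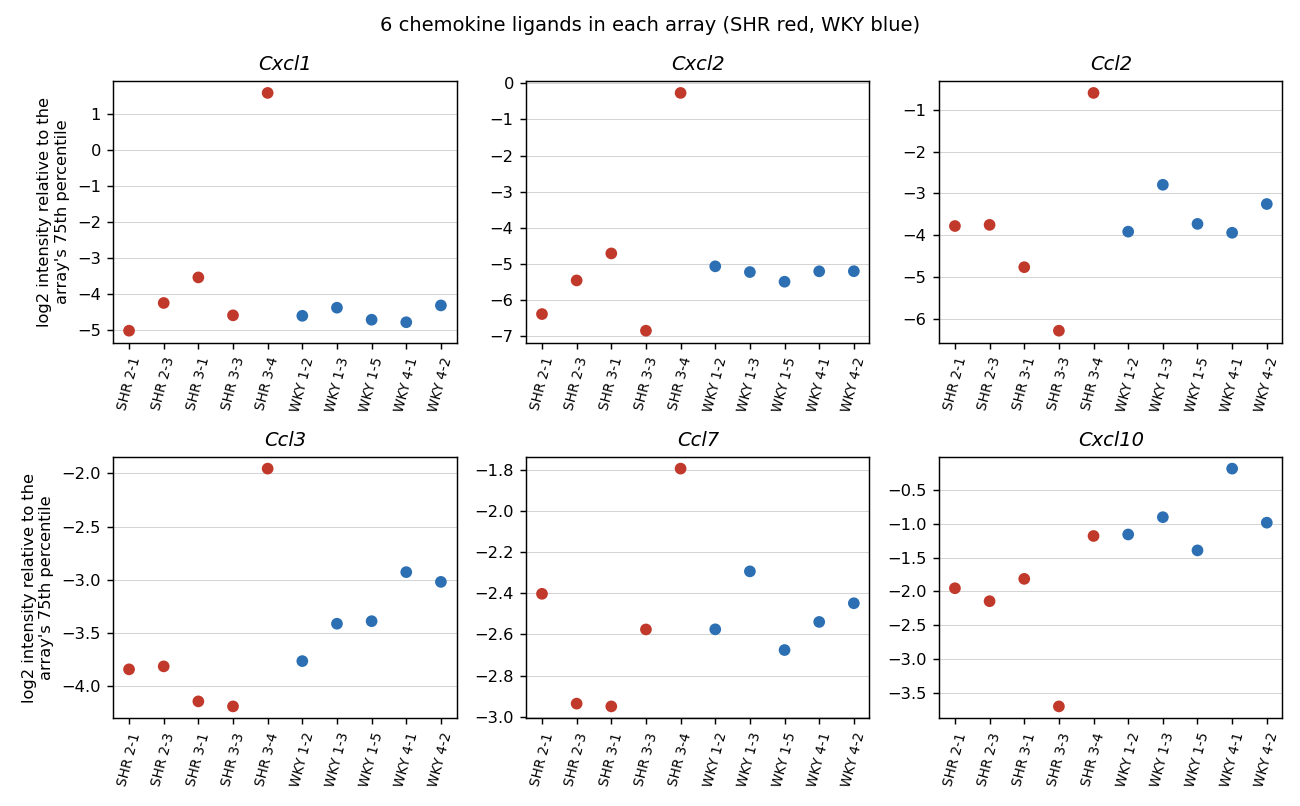
Level of 6 inflammatory ligands in each array (y axis, log2 intensity relative to the 75th percentile of the array; the scale differs between panels; SHR left in red, WKY right in blue). SHR 3-4 is the highest SHR array in all 6 panels, at 1.59 for Cxcl1 and −0.60 for Ccl2, and SHR 3-3 is the lowest for Cxcl2, Ccl2, Ccl3 and Cxcl10, with Cxcl2 and Ccl2 not well above background there.

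In SHR 3-4, 5 of the 49 tested genes (Cxcl1, Ccl2, Ccl3, Cxcl10 and Ccr3) lay at least 2-fold above the mean of the other SHR arrays, or 10.2%, against 0.625% of all genes tested. That mean holds SHR 3-3, which stood apart. Against SHR 2-1, 2-3 and 3-1 alone, a comparison chosen after seeing the data, 4 of the 49 (Cxcl1, Ccl2, Ccl3 and Ccr3) were at least 2-fold above, or 8.16%, against 0.367% of all genes. Ccr3 was not well above background in SHR 2-1 (−5.43), which lowers both means. Its level was −2.99 in SHR 3-4, against −3.74 in SHR 2-3 and −3.78 in SHR 3-1. Of the 16 inducers of chemokine transcription, Il1b and Il6 were at least 2-fold above the mean of the other 4 SHR arrays in SHR 3-4, by 1.73 and 1.34 on the log2 scale. Tnf was higher by 0.86 and Nfkbia, a target and inhibitor of NF-kB, by 0.56. The deviation was 0.00 for Ifng, 0.03 for Il17a, 0.05 for Ltb and −0.19 for Lta, and the median of the 16 was 0.04. Neutrophil markers had 0 of 4 and macrophage markers 0 of 9 at least 2-fold above, with medians of 0.05 and 0.40. Among the other markers Blk (B cells) was higher by 1.07, Tnfrsf17 (plasma cells) by 1.1 and Egf (granular ducts) by 1.01, and against SHR 2-1, 2-3 and 3-1 alone Egf differed by −0.07. The part of these genes in the ligand levels was not tested. Cxcr2, the neutrophil receptor of Cxcl1 and Cxcl2, was not well above background there (−4.84, against −4.12 to −3.59 in the other SHR arrays and −4.11 to −3.70 in WKY).

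In SHR 3-3, 6 of the 49 (Ccl2, Cxcl16, Cxcl10, Cxcl1, Cxcl14 and Cx3cl1) lay 2-fold or more below the average of the remaining SHR arrays, or 12.2%, against 2.86% of all genes tested. That average holds SHR 3-4. Against SHR 2-1, 2-3 and 3-1 alone, again chosen after seeing the data, 3 of the 49 (Ccl2, Cxcl10 and Cxcl16) were at least 2-fold below, or 6.12%, against 2.84% of all genes, and Ccl2 was not well above background in SHR 3-3. Macrophage markers had 3 of 9 at least 2-fold below (C1qb, Fcer1g and Mrc1, median −0.79) and fibroblast markers 3 of 5 (Col3a1, Dcn and Pdgfra, median −1.41), relative to the other 4 SHR arrays. Egf, of granular ducts, deviated by −4.31 on the log2 scale and Adipoq, of adipocytes, by −1.57. Mrc1 was not well above background in SHR 3-3. Against SHR 2-1, 2-3 and 3-1 alone it deviated by −0.91, short of 2-fold, C1qb by −1.25 and Fcer1g by −1.10. The part of these markers and of the array's lower signal in its chemokine values was not tested. Each strain difference that passed is as large or nearly as large without this array: −2.92 for Cxcl13, −0.77 for Cxcl12 and 0.77 for Cxcl17. Ccl5 is the exception in its call (−0.45, adjusted p = 0.0512).

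The motifs were counted in the 41 promoters of the set that the RefSeq table holds; Ccl5 is not among them. The NF-kB motif was in 9 (22.0%), against 7.51% of the 33469 promoters in the table: Cxcl1, Cxcl2, Cxcl6, Cxcl10, Cxcl11, Ccl7, Ccl9, Ccl20 and Ccr3. Of the 5 genes at least 2-fold above the mean of the other SHR arrays in SHR 3-4, Cxcl1, Cxcl10 and Ccr3 hold it. Ccl2 and Ccl3 are not listed, for want of either the motif or a promoter in the table. Against SHR 2-1, 2-3 and 3-1 alone Cxcl10 was 1.73-fold above, and Ccr3 was not well above background in SHR 2-1. TATAAA was in 11 (26.8%), against 14.2%. The ISRE-like motif, of interferon-response elements, was in 2, Cxcl10 and Ccl19 (4.88%, against 3.92%). TTCNNNGAA, a pattern of interferon-gamma response elements, was in 6 (14.6%, against 8.87%). These shares are descriptions of the windows.

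The remaining receptors gave small differences. Ccr6, the receptor of Ccl20, differed by −0.28 ± 0.11 (adjusted p = 0.178), Cxcr2 by −0.25 ± 0.19, Xcr1 by 0.07 ± 0.12 and the scavenging receptor Ackr2 by −0.05 ± 0.12. Ccr10, Cxcr4, Cxcr6 and Ccr6 had an unadjusted p below 0.05, all lower in SHR. Over the 17 receptors the differences ran from −0.51 to 0.24 and their 95% intervals from −0.81 to 0.73. A 2-fold change lies outside all of these intervals, smaller changes lie within some, and the strains overlapped for each receptor. Cxcr1, a neutrophil receptor, was not well above background on any array.

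Of the ligands not yet given, Ccl6 and Ccl9, which attract myeloid cells in mice, differed by 0.20 ± 0.19 and −0.34 ± 0.16. Ccl11 and Ccl26, of which the first attracts eosinophils and the other does so in humans, differed by −0.16 ± 0.19 and 0.15 ± 0.10, Ccl12, a monocyte attractant in mice, by −0.16 ± 0.13, the neutrophil attractant Cxcl6 by −0.11 ± 0.12 and the Ccr8 ligand Ccl1 by 0.20 ± 0.12. None of these 7 passed. Xcl1, the ligand of Xcr1 on cross-presenting dendritic cells, gave different answers by probe. The probe with the higher level, used in the counts above, differed by −0.08 ± 0.12, while the other had levels of −3.06, −3.53, −3.86, −3.15 and −3.30 in SHR, against −2.84, −2.72, −3.01, −2.75 and −2.78 in WKY. On that probe the strains did not overlap and the difference was −0.56 ± 0.14 (adjusted p over all probes 0.0473), so a fall of Xcl1 rests on the choice of probe.

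The genes around chemokine signalling were listed with earlier results of these data known, and their counts are descriptions. Of 30 tested genes of receptor signalling, 2 fell and 0 rose, with a median of −0.04; over all genes tested 2.85% fell and 1.51% rose. Rgs2, which shortens G protein signals, had levels of 1.54, 1.17, 1.42, 1.03 and 1.43 in SHR, against 1.99, 2.22, 1.86, 1.85 and 2.00 in WKY, a difference of −0.66 ± 0.12 (adjusted p = 0.00635). Rac2, the small GTPase of blood cells that drives their migration, had levels of 0.09, −0.15, −0.04, −0.99 and −0.13 in SHR, against 0.39, 0.55, 0.48, 0.71 and 0.68 in WKY, a difference of −0.81 ± 0.18 (adjusted p = 0.0233). The strains did not overlap in either gene, and SHR 3-3 was the lowest array in both. The call of Rgs2 was kept without any single array, that of Rac2 was lost without WKY 1-3, 4-1 or 4-2 (adjusted p up to 0.0611), and both were lost with the slide as a block (−0.36 and −0.53). The macrophage markers given above are lower in the same arrays, and their part in the difference of Rac2 was not tested. The inhibitory G protein subunits Gnai2 and Gnai3 differed by 0.00 ± 0.08 and 0.02 ± 0.08.

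Of 16 inducers of chemokine transcription, 1 fell and 1 rose, with a median of 0.04, against the same shares of all genes. Irf1, an interferon-induced transcription factor, differed by −0.55 ± 0.15 (adjusted p = 0.0577), which did not pass. Ltbr, the lymphotoxin receptor through which stromal cells are induced to make Cxcl13, was higher in SHR. Its levels were 2.37, 2.25, 2.46, 2.81 and 2.42 in SHR, against 2.04, 1.74, 2.20, 1.98 and 1.90 in WKY. The difference was 0.49 ± 0.12 (adjusted p = 0.0363). That call was lost when SHR 3-1, SHR 3-4, WKY 1-2, WKY 1-3, WKY 4-1 or WKY 4-2 was left out (largest adjusted p 0.0991). It was also lost with the slide as a block (0.35). The part of Ltbr in the difference of Cxcl13 was not tested. The ligand genes Ltb and Lta differed by −0.31 ± 0.13 and 0.05 ± 0.11, and neither passed. Ifng differed by −0.09 ± 0.13.

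Of 8 genes that trim, shed or present chemokines, 0 passed (3 at an unadjusted p below 0.05), with a median of −0.15; Dpp4, the peptidase that inactivates Cxcl12, differed by −0.31 ± 0.14. Of 7 other chemoattractants and atypical receptors, 0 passed (2 unadjusted), with a median of −0.03. Among the remaining marker lists, neutrophil markers had 1 of 4 lower (Ncf1) and mast cell markers 1 of 4 lower (Cpa3), while dendritic cell (2 genes) and endothelial (4 genes) markers had 0 past the threshold (0 and 1 unadjusted). The acinar and granular duct markers that define the gland were detected, with mean levels of 4.22 to 4.71 and 3.08 to 4.90 in the SHR arrays and of 4.69 to 5.09 and 4.39 to 4.70 in the WKY arrays. Of the 5 acinar markers Smgc fell by 4.10 and Oprpn rose by 0.61. Aqp5, Bhlha15 and Slc12a2 differed by 0.38, 0.33 and 0.23 without passing, and the median of the 5 was 0.33. The lowest granular duct mean (3.08) belongs to SHR 3-3, where Egf had a level of 0.73.

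**Figure D5:**
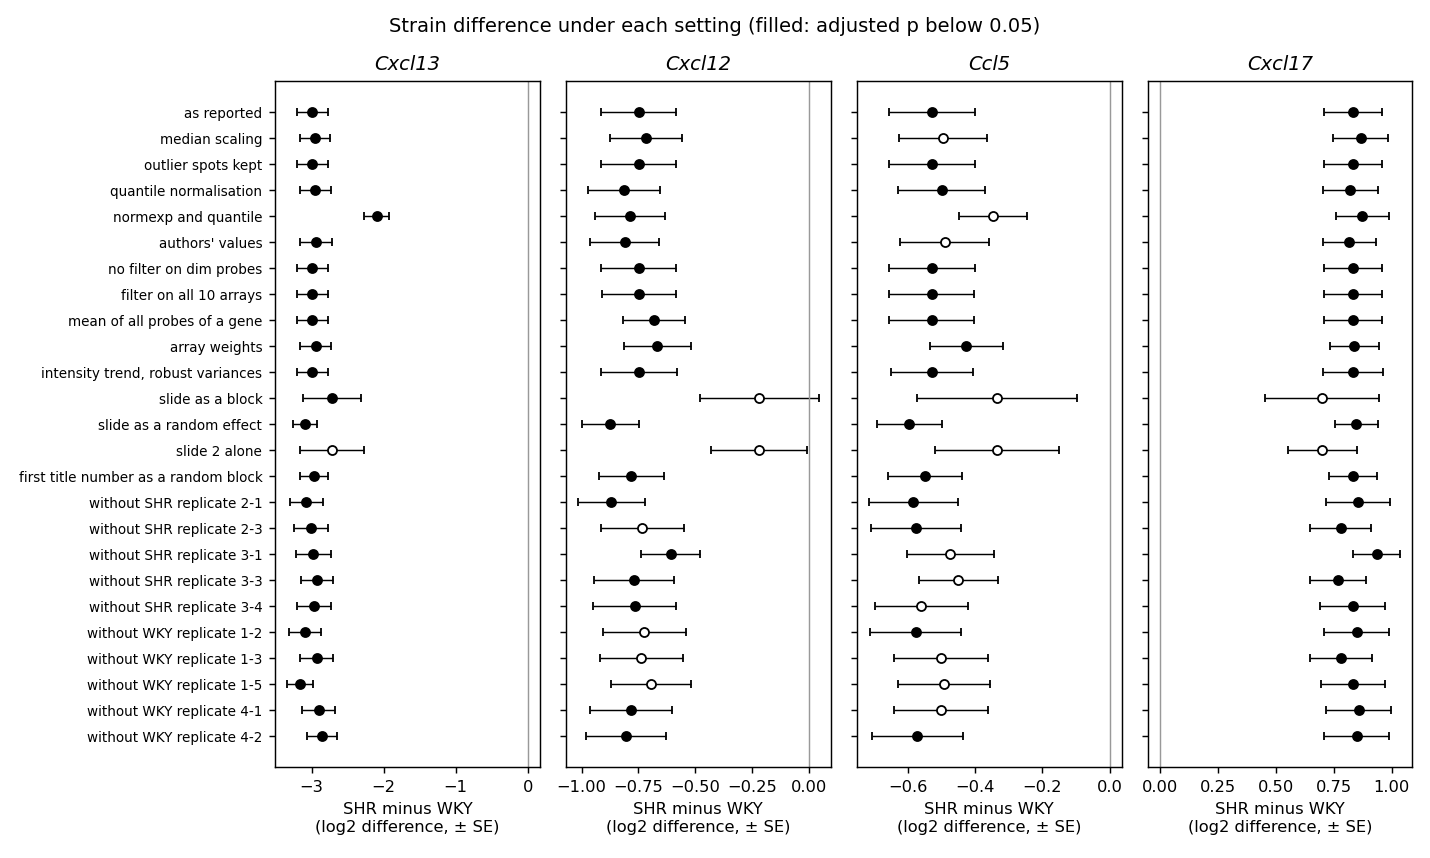
Difference of the 4 ligands past the threshold (x axis, SHR minus WKY in log2 units, ± SE; the scale differs between panels) under each processing setting (rows); filled points have an adjusted p below 0.05. The sign is the same in every row shown; Cxcl13 and Cxcl17 stay past the threshold without any single array, while the open points of Ccl5 are spread over scaling, slide and left-out arrays.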

How the data were processed

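Total RNA was Cy3-labelled and hybridised to 1 array per rat, per the labels' protocols. Per the file headers, Agilent Feature Extraction (11.0.1.1) gave the authors' processed signal, a background-subtracted intensity on a linear scale that is not normalised between arrays. A second file from the authors has deposited log2 values with an equal 75th percentile, 8.79, in every column; its making is not given in the sources read for this work.

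From the processed intensity, log2 minus the array's 75th percentile over non-control spots was computed, with spots marked as outliers missing and spots of a probe averaged. A probe was kept if it was well above background in 5 or more of the 10 arrays. Symbols came from RefSeq accessions (assembly GRCr8), which named 18005 of 30367 probes. The probe with the highest mean stood for its gene; 48 of the 52 genes had 1 probe. SHR was compared with WKY by limma (lmFit, eBayes; two-sided; Benjamini-Hochberg over 14711 genes; threshold 0.05), which was tested on simulated data. The labels describe separate rats.

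The genes described with values on every array were chosen by a rule: those past the threshold, the 3 largest rises and falls not past it, the 3 highest ligands and receptors, those without overlap, and the partners of each. Members, lists and tests were chosen with earlier results of these data known. Alternatives were other scalings and background corrections (normexp with offset 50, on the median signal, where a mean signal had been planned), the authors' values, filters, probe rules, array weights, the slide, the first title number and leaving out each array. Protein sequences and a circular RNA profile were not used here. Some genes that enter the counts are not reported here by name. R 4.3.3 ran limma 3.58.1, and Python 3.11.15 ran pandas 2.3.3, numpy 2.4.6 and, for figures, matplotlib 3.10.9.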

Additional observations from a re-analysis of the deposited data

Results flagged for a closer look

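In 5 of the 98 strain groups of a tested gene (49 genes, 2 strains), 1 array lay far from the others of its strain: its gap to the nearest divided by the range of the group exceeded 0.71, Dixon's critical value for 5 arrays. Chance flags about 1 in 20 groups, and 5 of 98 is close to that. Ccl3 was high in SHR 3-4, at −1.96, against −4.19 to −3.81 in the other SHR arrays. Cxcl1 was high in the same array, at 1.59, against −5.02 to −3.54. Cxcl16 was low in SHR 3-3, at 0.36, against 2.10 to 2.54 in the other SHR arrays. Cxcr4 was high in WKY 1-2, at −1.30, against −1.75 to −1.63 in the other WKY arrays. Ccl1, the ligand of Ccr8, was low in WKY 1-5, at −3.48, against −3.25 to −3.16.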

How the results depend on the processing

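The number of genes of the set lower in SHR, 3 as reported, was 1 with the slide as a block (Cxcl13), 11 with the slide as a random effect, 1 on slide 2 alone (Ccr3, from SHR 2-1, where it was not well above background), 6 when a random block was formed by the first number of the title, and 1 to 4 without 1 array. The number higher, 1 as reported, was 0 with the slide as a block and 0 on slide 2 alone. The estimated correlations behind the random effects were negative (−0.19 for slides and −0.16 for title numbers), and all genes called then numbered 2101 lower and 1350 higher, and 1110 lower and 669 higher; with the slide as a block they numbered 32 lower and 12 higher. The split of all calls, 419 lower and 222 higher, was 386 and 336 with median scaling, 421 and 351 with quantile normalisation, 352 and 281 with normexp, and 432 and 423 with the authors' values. In those 4 settings Cxcl13, Cxcl12 and Cxcl17 passed with the same sign, and Ccl5 was lost in 3 (adjusted p = 0.0517 with median scaling, 0.0776 with normexp and 0.0534 with the authors' values). Ccr10 passed with 7 of its 24 alternatives, among them median scaling and the authors' values. Over all alternatives the lowest adjusted p was 0.00264 for Ccr10, 0.00651 for Cxcl10, 0.0455 for Cxcl16, 0.0511 for Ccl3 and 0.0542 for Cx3cl1. Cxcl16 passed only with the slide as a random effect, and Cxcl10 only there and with the title number as a random block. No paired analysis was possible because the strains share no replicate numbers. The number of arrays, and a single SHR array beside WKY arrays on 1 slide, limit what can be detected; Ccr1, Cxcr1 and Cxcl2 were too dim to test.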
